A study of Drosophila melanogaster with 2 samples.

Results

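The 10 genes described here, Syt1, nSyb, Syx1A, brp, ChAT, Vmat, Ddc, elav, Rbp9 and para, encode proteins of the synapse, of transmitter chemistry and of the differentiated neuron. They were chosen as genes used by differentiated neurons, from the 13968 protein-coding genes on the chromosome arms, and all 10 were matched by symbol in the Ensembl models of the fly genome. The choice was made with the peaks around these genes already known, so the counts of peaks are descriptions and no test was run on them. The peaks come from chromatin immunoprecipitation followed by sequencing of a GFP-tagged homeobrain protein, the product of hbn, a homeodomain transcription factor gene. Both samples are whole Drosophila melanogaster embryos of the strain hbn-GFP, which carries an insertion that expresses an hbn-eGFP fusion, 0 to 18 h old. Chromatin was sonicated to 200 to 800 bp and precipitated with an anti-GFP antibody, although the antibody field of the labels names hbn. The 2 samples are biological replicates of 1 group, and no second genotype, age or treatment was compared. Whole embryos mix neurons with all other cells, so a site used in few cells and a site used weakly in many cannot be told apart.

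At a synapse, a calcium signal drives vesicles filled with transmitter to fuse with the plasma membrane. A SNARE protein on the vesicle pairs with SNARE proteins on the target membrane, a calcium sensor times the event, and an active zone scaffold holds vesicles near calcium channels. Enzymes and vesicular transporters decide which transmitter a neuron releases, sodium channels carry the action potential to the terminal, and RNA-binding proteins of the ELAV family process neuronal transcripts. Most of these genes are switched on late in embryogenesis, as neurons mature.

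A peak here is an entry in the authors' sets thresholded on the irreproducible discovery rate (IDR), which asks whether an entry keeps its rank between paired lists. The conservative set compares replicate 1 with replicate 2 and held 3595 peaks, the smallest deposited −log10 IDR being 2.0, an IDR of 0.01. The pooled set held 3735 peaks, and the own sets of replicate 1 and replicate 2 held 3288 and 2189. Each set comes with a ranked list, from 58952 entries in replicate 1 to 107925 in the comparison of the replicates, which also holds the entries that failed. On the chromosome arms, 3716 entries of that last list had a −log10 IDR of at least 2.0, but the conservative set holds 3592 there. Why some of those entries are not in the set is not given in the sources used here. Signal is the deposited enrichment value of an entry, its scale is not stated and the read depth is unknown, so signals were compared within a list. An own start is any annotated transcript start of the gene, and a peak was placed there when its summit lay within 500 bp.

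In the conservative set, none of the 10 genes had a peak at an own start, beside 26.5% of all protein-coding genes. Peaks did lie around the genes: 5 of 10, namely Syt1, nSyb, Vmat, Ddc and Rbp9, had a summit inside the gene or up to 5 kb away, beside 50.1% of all protein-coding genes. Those 5 genes had 8 summits between them, and all 8 were nearest to the start of another gene. The neighbours were Taf10b, colt, HINT1, Bgb, mip120, CG10561, Phb1 and Ts, whose starts lay between 3 and 154 bp from the summits. The entries at colt and HINT1 overlap and have the same −log10 IDR, 2.19, so the 8 summits are not 8 separate sites. The remaining 5 genes, Syx1A, brp, ChAT, elav and para, had no conservative peak inside them or within 5 kb. Only elav had a peak at its own starts in any other set, in the pooled set and in that of replicate 1.

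Short sequences show the neighbours' sites. The word TATCGA, contained in TATCGATA, the site bound by the DNA replication-related element factor DREF, lay within 100 bp of 5 of the 8 conservative summits, on either strand. Over all 3592 conservative summits on the chromosome arms, 48.5% had TATCGA and 21.9% had TATCGATA in the same window. The sites at Taf10b (chr2L:2767828-2767853, + strand, covering the summit beyond the far end of Syt1), at CG10561 (chr2L:19114299-19114324, − strand, beyond the far end of Ddc), at Phb1 (chr2L:19123838-19123865, + strand, upstream of Ddc) and at Ts (chr2L:2969674-2969699, + strand, beyond the far end of Rbp9) are from the RefSeq copy of dm6, with the word in capitals. The fifth site, at mip120 near Vmat, is named only.
Taf10b: agatgctagtTATCGAattattccgt
CG10561: tgaagaagtgTATCGAttcataacca
Phb1: cacggcctgtTATCGATAatacaactgt
Ts: cgattacattTATCGAtgtcgaccgg
The word's lowest coordinate lay 4 bp, 10 bp, 21 bp and 20 bp from the respective summit. A further TATCGA, not shown, lay 29 bp from the summit at Taf10b, 13 bp from that at CG10561 and 55 bp from that at Phb1. Only Phb1 had the full 8-base TATCGATA.

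The same words were sought at the neuronal genes' own starts, none of which had a conservative summit. In windows of 300 bases, 250 before the start and 50 from it on, TATCGA was found at 1 of 22 own starts (4.55%), that of ChAT, and TATCGATA at none. The 3 windows of nSyb overlap one another, as do 2 of the para windows. Over the 14999 protein-coding starts without a conservative summit the shares were 15.2% and 2.27%, over the 4631 with one they were 57.4% and 25.7%, and over all 19630 they were 25.1% and 7.81%. Another promoter word, GGTCACAC, known as promoter motif 1, was found at 2 of the 22 starts (9.09%), beside 6.69% of all starts. The sites are that of ChAT (chr3R:18705366-18705391, + strand), whose first base lies 125 bp before the start, that of Syx1A (chr3R:24105748-24105775, − strand), which covers the start, and that of Rbp9 (chr2L:2954527-2954554, − strand), 225 bp before the first start.
ChAT: gccaattggcTATCGAatgcccggcg
Syx1A: gtgacggcacGGTCACACtcgaaaattg
Rbp9: aaccttgcctGGTCACACtgaattttta
A match is a match of letters and does not show that a factor binds there. ChAT, the gene with TATCGA, had no entry at its start in the list that compares the replicates.

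The other words searched, also on both strands, were spread over the own starts. TATAAA, the core of the TATA box, was found at 7 of 22 (31.8%), beside 46.3% of all protein-coding starts. TCAGTT, an initiator sequence, was found at 8 (36.4%), beside 26.0%. GAGAG, bound by GAGA factor, was found at 9 (40.9%), beside 33.2%. TAATTA, a core recognised by many homeodomains, was found at 2 (9.09%), those of nSyb and Vmat, beside 18.9%. It was present at 20.8% of the starts with a conservative summit and at 18.2% of those without, whereas TATCGA was present at 57.4% and 15.2%.

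The map of the 10 genes shows where the summits lay relative to the genes and their neighbours.

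**Figure D1:**
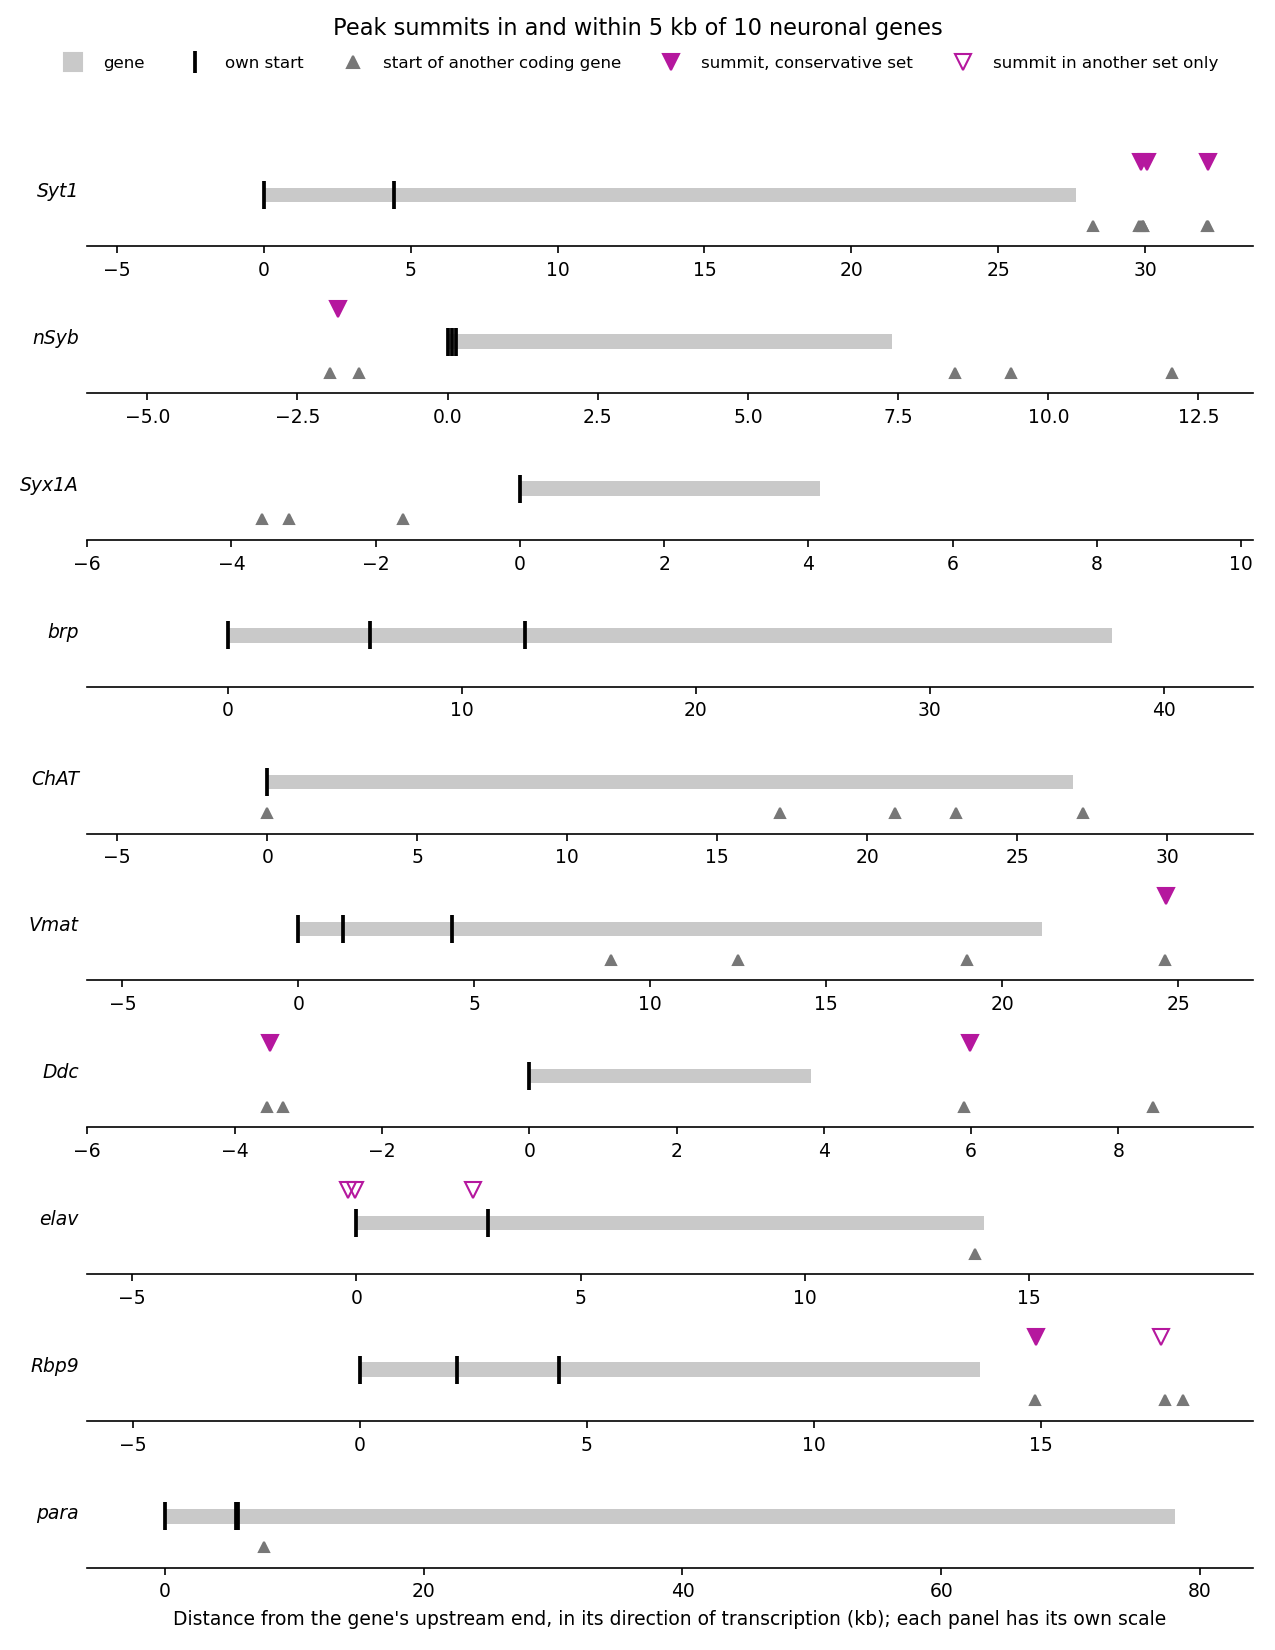
Each panel is 1 gene, drawn in its direction of transcription, with distance from its upstream end in kb on the horizontal axis. Filled triangles above the gene are conservative summits, open triangles are summits found in another set only, black bars are own starts and grey triangles below are starts of other protein-coding genes. The filled triangles of Syt1, nSyb, Vmat, Ddc and Rbp9 stand over grey triangles outside the gene, and the open ones of elav stand over or near its black bars.

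Of the vesicle fusion genes, Syt1 (FBgn0004242, chr2L:2772327-2799979, − strand, 27.7 kb, 2 own starts) encodes synaptotagmin, the calcium sensor of the vesicle. Its strongest nearby peak was at Taf10b, which encodes a subunit of the general transcription factor TFIID. That peak had a signal of 272 in the conservative set and ranked 565 of 3595, and its summit at chr2L:2767842 lay in the 5′ UTR of Taf10b, 3 bp from its start. In the replicates' own sets the peak had a signal of 163 and of 107. It was in all 4 sets and lay 27.7 kb from the nearest Syt1 start. A further pair of conservative summits near the same end of the gene lay at colt, the mitochondrial carnitine carrier gene, with a signal of 45.3, and at HINT1, with a signal of 10.1. Neither passed in the pooled set or in either replicate's own set, where the strongest ranked entry there had a signal of 39.5 in replicate 1 and 30.4 in replicate 2. At the Syt1 starts themselves, the strongest ranked entry had a signal of 33.6 in the list that compares the replicates, with a −log10 IDR of 0.21. Replicate 2 listed an entry of 17.8 there and replicate 1 listed none. The strongest entry inside Syt1 had a signal of 52.1, in an intron, and did not pass either.

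nSyb (FBgn0013342, chr3L:1630348-1637752, − strand, 7.41 kb, 3 own starts) encodes neuronal synaptobrevin, the SNARE protein of the synaptic vesicle. Among the 10 genes it had the conservative summit nearest to an own start, 1.82 kb upstream. That summit, at chr3L:1639575 with a signal of 151, lay 136 bp from the start of Bgb, which encodes a partner of Runt-family DNA-binding proteins. The peak was also within 500 bp of the start of Mettl2. In the replicates' own sets it had signals of 102 and 54.6. At nSyb's own starts the strongest entry of the list that compares the replicates had a signal of 36.3 and a −log10 IDR of 1.2, an IDR of 0.063. In replicate 1 the strongest entry had a signal of 5.09, below the median entry of its list (14.1), and lay 19 bp before the first start. In replicate 2 the strongest had 28.2, above the median entry of its list (12.7), and lay 322 bp before that start. The replicates' strongest entries thus had summits at different positions.

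Syx1A (FBgn0013343, chr3R:24101600-24105763, − strand, 4.16 kb, 1 own start) encodes syntaxin, the SNARE protein of the plasma membrane. No set had a peak in it or within 5 kb. The nearest conservative summit lay 6.98 kb upstream, nearest to CG13605. The strongest ranked entry at the Syx1A start had a signal of 22.8 in the list that compares the replicates, with a −log10 IDR of 0.17. In replicate 1 it had a signal of 18.3 and a −log10 IDR of 1.63, an IDR of 0.024, which did not pass. In replicate 2 the values were 15.0 and 0.16. These entries lay 445, 415 and 123 bp downstream of the start, so that of replicate 2 was at another position. The strongest entry in the gene, with a signal of 47.9, lay in its 5′ UTR, 731 bp from the start, with a −log10 IDR of 0.73.

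The summits just inside and just outside the distance of 5 kb were those at Taf10b, 4.49 kb from the end of Syt1, and at eIF4H1, 6.48 kb from the end of para. In all 4 sets the peaks near Syt1 and nSyb lay at neighbours' starts.

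The active zone scaffold gene brp (FBgn0259246, chr2R:9503765-9541565, + strand, 37.8 kb, 3 own starts) encodes Bruchpilot, which builds the dense projection of the presynaptic active zone. It had the emptiest surroundings of the 10 genes: no other protein-coding gene starts in it or within 5 kb, no set had a peak there, and the nearest conservative summit, at Camta, lay 57.9 kb from an own start. Weak entries were nevertheless many, with 63 ranked entries in the gene or within 5 kb in the list that compares the replicates, or 1.32 per kb. Ddc at 1.74 and nSyb at 1.55 per kb were denser. The value over the chromosome arms was 0.775 per kb, taken over the full sequence length, the Y chromosome included. The strongest at an own start, 246 bp before the first one, had a signal of 46.4 and a −log10 IDR of 1.31, an IDR of 0.048. In replicate 1 the strongest had a signal of 23.9, and in replicate 2 it had one of 34.8, higher than the value of 76.3% of protein-coding genes in that list. No entry at brp passed in any set.

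Of the transmitter genes, ChAT (FBgn0000303, chr3R:18705501-18732344, + strand, 26.8 kb, 1 own start) encodes choline acetyltransferase, which makes acetylcholine. Its start at 18705501 is also that of VAChT, the vesicular acetylcholine transporter gene. No set had a peak in ChAT or within 5 kb, and the nearest conservative summit lay 37.6 kb away, at CG31229. At the shared start no entry was listed in the comparison of the replicates, in the pooled list or in replicate 1. Replicate 2 listed 1 entry of signal 17.5, 326 bp upstream, with a −log10 IDR of 0.26. The body of the gene held 31 ranked entries, the strongest with a signal of 47.2 in an intron.

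Vmat (FBgn0260964, chr2R:13513132-13534251, − strand, 21.1 kb, 3 own starts) encodes the vesicular monoamine transporter, which loads dopamine, serotonin and other amines into vesicles. The single conservative peak near it, with a signal of 253, lay at mip120, 20.3 kb from the nearest Vmat start and 26 bp from that of mip120, which encodes a member of the Myb-containing complex. The own sets of the replicates gave it signals of 144 and 117, with ranks of 801 of 3288 and 375 of 2189. At the Vmat starts, as at that of ChAT, only replicate 2 listed an entry, with a signal of 13.6. The strongest entry inside Vmat had a signal of 29.6, the lowest such value among the 10 genes.

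Ddc (FBgn0000422, chr2L:19116483-19120306, − strand, 3.82 kb, 1 own start) encodes dopa decarboxylase, the enzyme of the last step to dopamine and serotonin, which also serves cuticle hardening in the epidermis. The shortest of the 10 genes lay between 2 conservative peaks. One, with a conservative signal of 222 and signals of 140 and 82.3 in the 2 replicates' own sets, lay 5.99 kb downstream of the Ddc start and 82 bp from the start of CG10561. The other, with a conservative signal of 188 and replicate signals of 124 and 57.6, lay 3.52 kb upstream of the Ddc start, in the 5′ UTR of Phb1, which encodes the mitochondrial protein prohibitin. A second, weak summit passed beside Phb1 in the pooled set, with a signal of 9.8, and beside CG10561 in replicate 2, with one of 6.17. At the Ddc start itself, the comparison of the replicates listed an entry of signal 41.9, 299 bp upstream, with a −log10 IDR of 0.3. Replicate 1 listed one of 15.4 at the very edge of the window, 500 bp upstream, and replicate 2 listed none. The promoter of Ddc thus had no passing entry while those on both sides of it passed in every set. Ddc had the densest weak entries of the 10 genes, 1.74 per kb in the gene and 5 kb to each side, a window that includes both neighbours' promoters.

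Of the RNA-binding protein genes, elav (FBgn0260400, chrX:509235-523226, − strand, 13992 bp, 2 own starts) encodes the protein used as the general marker of fly neurons. It had no conservative peak within 5 kb, and the nearest conservative summit, at ebo, lay 43.7 kb from an own start. In the pooled set it had 2 peaks, both at own starts. One, at chrX:523253 with a signal of 74.1, lay 27 bp before the distal start, and the other, at chrX:520631 with a signal of 54.8, lay 346 bp before the proximal start. Replicate 1's own set had 1 peak, with a signal of 51.7, 194 bp before the distal start. Replicate 2 had an entry there with a signal of 24.7, 27 bp before the start, and a −log10 IDR of 1.32, an IDR of 0.048, which did not pass.

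In the list that compares the replicates, the distal elav entry had a −log10 IDR of 1.83, an IDR of 0.015, just outside the threshold of 0.01. The proximal entry had a −log10 IDR of 0.28, an IDR of 0.52. The distal signal of 74.1 was above that of 755 of the 3592 conservative peaks on the chromosome arms (21.0%) and below their median of 119. It was higher than the value of 73.3% of protein-coding genes. Gene models place the distal summit in an intron of arg, the arginase gene, which overlaps elav, and the proximal summit in introns of arg, elav and lncRNA:enrr. The nearest start of any kind to the distal summit was that of lncRNA:enrr, so elav and this non-coding gene cannot be told apart by position.

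The 100 bases before the 2 elav starts (chrX:523227-523326 for the distal and chrX:520286-520385 for the proximal, − strand, RefSeq copy of dm6) are shown because they hold or adjoin the only entries that passed at an own start, with every GAGAG in capitals, overlapping copies joined.
elav distal: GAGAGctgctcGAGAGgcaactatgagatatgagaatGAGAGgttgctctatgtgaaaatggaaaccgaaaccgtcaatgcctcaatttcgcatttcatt
elav proximal: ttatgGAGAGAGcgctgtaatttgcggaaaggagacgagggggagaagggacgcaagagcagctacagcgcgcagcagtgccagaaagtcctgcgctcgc
Neither holds TATCGA, TATCGATA or TAATTA, and none of these words lay within 100 bp of either pooled summit.

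Rbp9 (FBgn0010263, chr2L:2954762-2968434, + strand, 13.7 kb, 3 own starts) encodes another protein of the ELAV family, found in neurons and in the germ line. Its conservative peak, with a conservative signal of 168 and replicate signals of 113 and 66.2, lay 26 bp from the start of Ts, the thymidylate synthase gene, and 10.5 kb from the nearest Rbp9 start. Replicate 1 alone added a peak of signal 53.5 at Rrp1, a DNA repair gene, which was at a signal of 63.8 and a −log10 IDR of 0.78 in the list that compares the replicates. The first own start of Rbp9 had the second highest entry of the 10 genes in that list, a signal of 50.5, 17 bp before the start, with a −log10 IDR of 1.42, an IDR of 0.038. Replicate 1 listed an entry of 27.1 at the same position. The strongest entry of replicate 2 had a signal of 24.6 and lay at the third start, 348 bp downstream of it, so the replicates' strongest entries were at different starts.

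The ion channel gene para (FBgn0285944, chrX:16455027-16533096, − strand, 78.1 kb, 3 own starts) encodes the voltage-gated sodium channel of action potentials. No set had a peak in it or within 5 kb, although it is the longest of the 10 genes. The strongest entry at an own start had a signal of 22.9, 217 bp before the distal start, with a −log10 IDR of 0.06, an IDR of 0.86. Replicate 2 listed an entry of 14.4 there and replicate 1 none. Weak entries were sparse too, at 0.375 per kb, the lowest of the 10 genes.

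Over the 4 sets, the number of the 10 genes with a summit inside or up to 5 kb away was 5 in the conservative set, 6 in the pooled set, 6 in replicate 1 and 5 in replicate 2. The shares of all protein-coding genes in the same order were 50.1%, 50.1%, 47.3% and 37.6%. With a summit at an own start the counts were 0, 1, 1 and 0, the single gene being elav, beside 26.5%, 26.6%, 24.5% and 17.6% of all protein-coding genes. With any ranked entry at an own start the counts were 8, 8, 6 and 9, beside 76.8%, 71.3%, 64.8% and 67.4%. These counts belong to the measures with which the genes were chosen, so the shares of all genes are given beside them as background only.

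The strongest own-start signals of the 10 genes had a middling median among all protein-coding genes, except in replicate 1, where it was lower. Where the list that compares the replicates held an own-start entry, the strongest was above the median entry of that list, 17.6. The median over the 10 genes of the strongest own-start signal, with a gene without an entry counted as 0, was 34.9 in the list that compares the replicates, against 34.0 over all protein-coding genes. It was 10.3 against 20.4 in replicate 1 and 17.6 against 16.5 in replicate 2. In the order of their values in the first of these lists, elav at 74.1 came before Rbp9 at 50.5, brp at 46.4, Ddc at 41.9, nSyb at 36.3 and Syt1 at 33.6. At the lower end, para at 22.9 and Syx1A at 22.8 had almost equal values, and ChAT and Vmat had none. The replicates gave other orders, with elav first in replicate 1 and brp first in replicate 2.

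**Figure D2:**
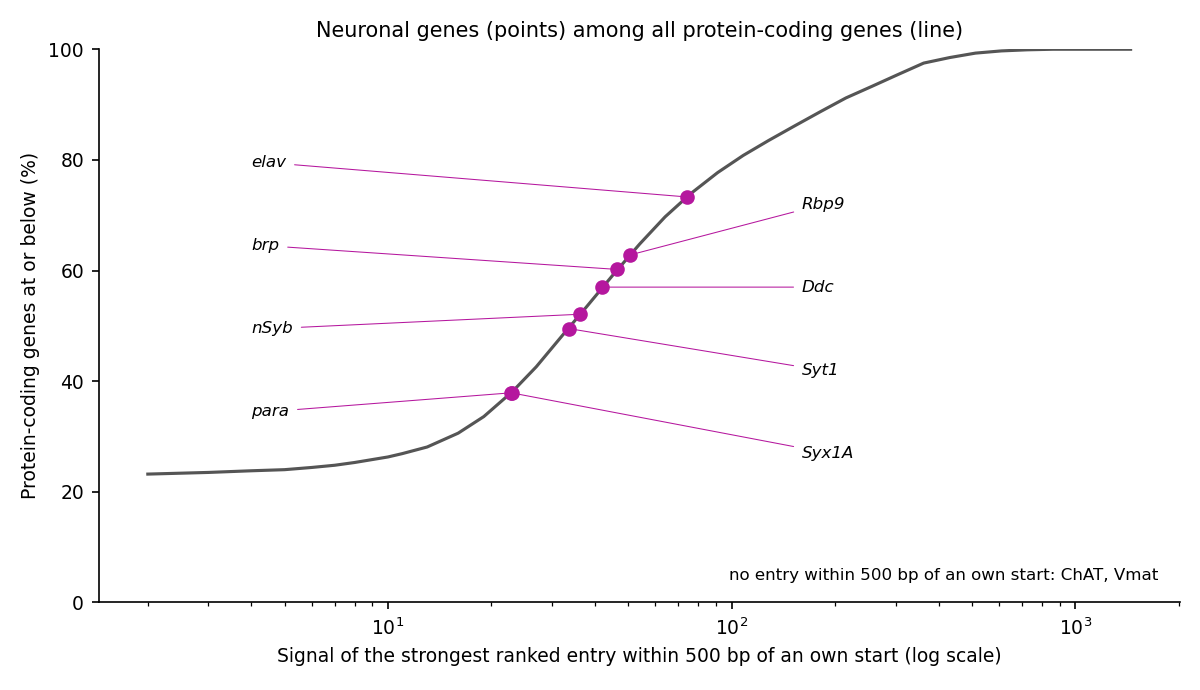
The line gives the percentage of all 13968 protein-coding genes whose strongest ranked entry within 500 bp of an own start has at most the signal on the horizontal log axis, in the list that compares the replicates. Points are the 8 neuronal genes with an entry, from Syx1A at 22.8 to elav at 74.1, and they lie in the middle of the curve.

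The own starts can be set beside all neighbouring promoters or beside those that held a peak. Over all 29 other protein-coding genes that start in the 10 genes or within 5 kb of them, the median strongest own-start signal was 31.4 in the list that compares the replicates, against 34.9 for the 10 genes. It was 19.1 against 10.3 in replicate 1 and 17.5 against 17.6 in replicate 2. In replicate 1, the 6 neighbouring promoters whose peak was in both replicates' own sets had signals from 102 to 163, and the 10 genes reached at most 51.7. In replicate 2 the same 6 promoters ranged from 54.6 to 117 and the 10 genes reached at most 34.8. These 6 were taken because they held a peak, which fixed the gap, so it is shown as a description of the values.

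**Figure D3:**
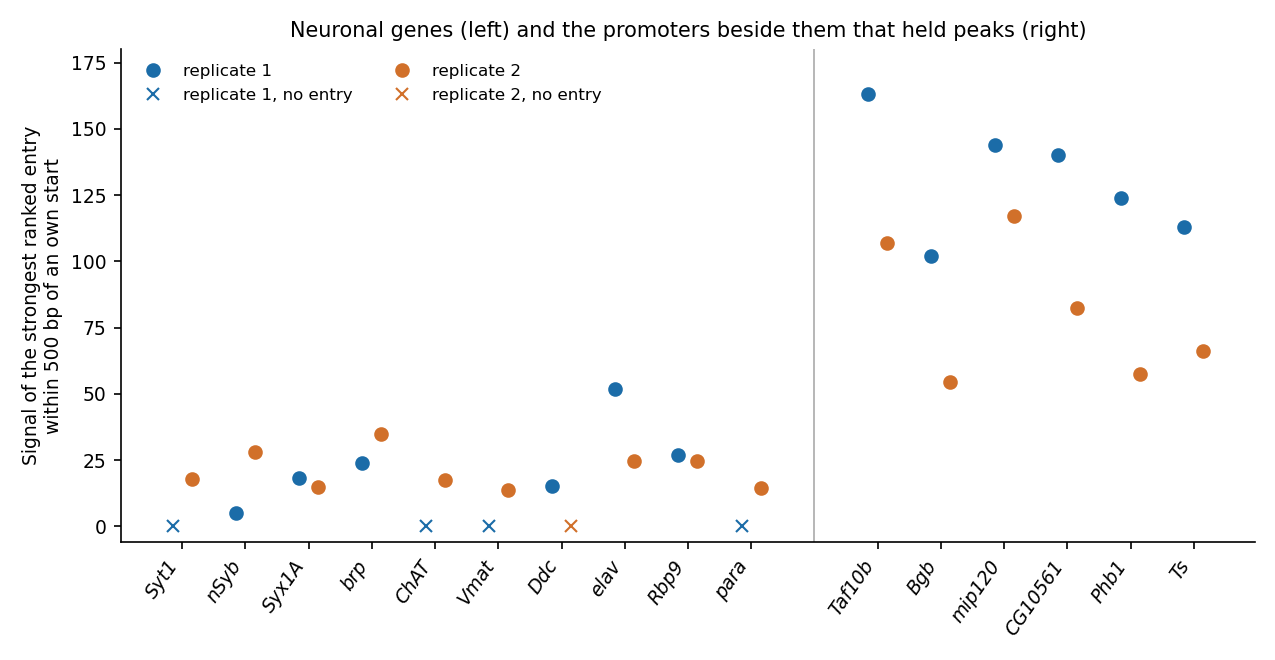
The vertical axis is the signal of the strongest ranked entry within 500 bp of an own start, in the list of replicate 1 (blue) and of replicate 2 (orange), and crosses at 0 mark genes with no entry. The 10 neuronal genes are on the left and the 6 neighbouring promoters with a peak in both replicates on the right, and colours are to be compared within a replicate only.

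Of the 29 neighbouring genes, 10 (34.5%) had a conservative summit at an own start, beside 26.5% of all protein-coding genes. The 10 are not independent, since Taf10 and Taf10b share a summit, as do Bgb and Mettl2, and colt and HINT1 lie together. The 19 without a summit included every gene that starts beside Syx1A, ChAT, elav and para. VAChT, among those 19, shares the ChAT start, so that start is counted here again. At all annotated starts of the 10 neighbours with a conservative summit, TATCGA was found at 7 of 14 (50.0%). At those of the 19 without one it was found at 3 of 21 (14.3%). These starts were grouped by gene, whichever start held the summit and whether or not it lay within 5 kb. Grouped by start instead, the shares over all protein-coding starts with and without a summit were 57.4% and 15.2%.

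Other genes of the same pathways, listed by role, were counted at their own starts in the conservative set, where 26.5% of all protein-coding genes had a summit. The 14 genes of transmitter synthesis and transport include VGlut, Gad1, ple, SerT and VAChT, the last of which shares the ChAT start and so repeats its outcome. None of the 14 had a summit at an own start. Nor did any of the 4 other neuron-wide genes, fne, Appl, futsch and nrv3, a list too short to set against that share. Of 21 ion channel and receptor genes, 2 (9.52%) had one: eag, a potassium channel gene, with a signal of 329, and NaCP60E, which encodes a voltage-gated channel related to para, with 245. Both peaks were in each replicate's own set, with signals of 183 and 140 for eag and of 178 and 75.2 for NaCP60E.

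Of 21 genes of the synaptic vesicle and active zone, 6 (28.6%) had a conservative summit at an own start, close to the background of 26.5%. The strongest was at shi, the dynamin gene of vesicle retrieval, with a signal of 431, 51 bp from its start. The peak at Rop, the gene of the Sec1 family partner of syntaxin, had a signal of 196 but was nearest to Ras64B. Dap160, an endocytic scaffold, had 171 and EndoA, the endophilin gene, had 166. Csp, which encodes a vesicle chaperone, had 137, and Synj, the synaptojanin gene, had 63.4 with no passing peak in the pooled set or in either replicate's own set. The 4 roles together came to 8 of 60 genes (13.3%), beside 26.5% of all protein-coding genes. No test of a difference was run.

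Genes of general membrane fusion, which encode SNARE proteins and the SNAP, NSF and Sec1 family proteins that act on them, were counted in the same way. Of 23 such genes, 14 (60.9%) had a conservative summit at an own start, and 14 in the pooled set, 14 in replicate 1 and 9 in replicate 2. The shares of all protein-coding genes were 26.5%, 26.6%, 24.5% and 17.6% in that order, and the difference was not tested. The strongest were at the SNARE gene Ykt6, with a signal of 420, at Vps45, which encodes a Sec1 family protein, with 340, at Syx5, a Golgi syntaxin gene whose peak was nearest to CG5861, with 330, and at Syx17, a syntaxin gene of autophagy, with 269. The summits counted at Slh and Vps33B, 358 and 346 bp from their own starts, were also nearest to other genes, oaf and Fur1. The counts and the shares take any summit within 500 bp, whichever start is nearest. Syb, the synaptobrevin gene of non-neuronal cells, was picked after its value was seen, as the closest relative of nSyb. It had a signal of 176 in the conservative set and 136 in replicate 1, 14 bp from its start, and none that passed in replicate 2. The median strongest own-start signal was 91.4 for the fusion genes, 29.6 for the 60 synapse-related genes and 34.0 for all protein-coding genes.

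**Figure D4:**
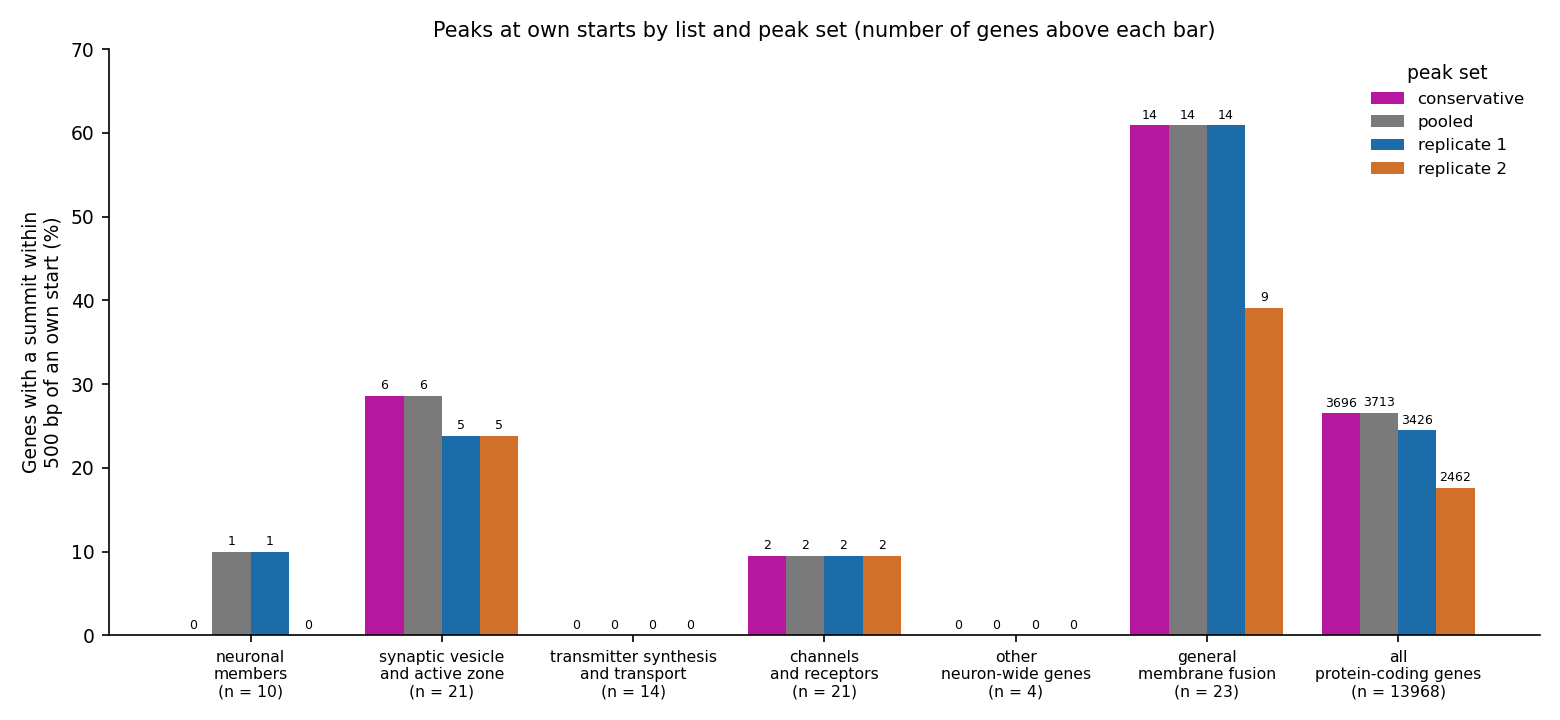
Bars give the percentage of each list's genes with a summit within 500 bp of an own start in each of the 4 peak sets, with the number of genes above each bar. The fusion genes stand at 60.9% in the conservative set, all protein-coding genes at 26.5%, and the 10 neuronal genes at 0.

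Gene length differed between some of these groups, but hardly between the fusion genes and all protein-coding genes. The median length was 17.6 kb for the 10 neuronal genes, 14.3 kb for the synapse-related genes, 2.12 kb for the fusion genes and 2.16 kb for all protein-coding genes. A longer gene has more room for a summit inside it. The median number of own starts was 2.5 for the 10 genes and 1.0 for each of the other groups. A gene with more own starts has more room for a summit or an entry at one of them. The part of gene length, of the number of own starts and of neighbouring genes in these counts and signals was not tested.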

How the data were processed

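The authors' peak entries rest on filtered dm6 alignments with 1 control, per the README deposited with each sample. Which aligner and which peak caller made them is not given in the sources used here. The deposited signal of each entry is the authors' enrichment value, on a scale that is not stated, and the deposited −log10 of the global IDR is given in the ranked lists. The 4 columns of per-sample values in the series' ranked lists have no names and were not used. The control experiment and the alignments were not used here.

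Gene models were from Ensembl release 115, built on Release 6 of the assembly, the same as dm6. Bases were read from RefSeq's copy. Coordinates are 1-based. Summits and words were located and counted with Python 3.11.15 and pandas 2.3.3, and figures were drawn with matplotlib 3.10.9. Counting was tested on simulated summits. The genes, lists, words and windows were chosen with earlier results of these data known. Named genes are the 10 genes, each gene nearest to a passing summit near them, and, of each list, every gene with a summit at an own start if at most 6, otherwise the 4 strongest. Syb, Slh and Vps33B are named besides, for the reasons given with them. With 1 group there was no contrast to test. Depth is unknown, so no interval on signal is given. Alternatives were the other sets, each replicate alone, stricter thresholds and other distances.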

Additional observations from a re-analysis of the deposited data

How the results depend on the processing

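Of the counts, those of the 10 genes with a ranked entry at an own start (8, from 6 to 9 over 5 alternatives) and of synapse-related genes with a summit there (8, from 7 to 9 over 7) stayed within 1.5 times. Genes with a summit inside or up to 5 kb away numbered 5, and 2 within 2 kb and 7 within 10 kb, with 5 to 6 when either replicate was left out. Genes with a summit at an own start numbered 0, against 1 in the pooled set, and from 0 to 1 when a replicate was left out, the 1 being elav without replicate 2. Summits nearest to another gene numbered 8, against 2 within 2 kb and 13 within 10 kb. The fusion genes numbered 14, against 9 at an IDR of 0.001 and from 9 to 14 when a replicate was left out, the 9 being without replicate 1. A narrower distance takes in fewer summits by construction, and the cause of the other changes was not tested. No paired analysis was possible because the series has 1 group. Read depth is unknown, so an entry that did not pass is not shown to be absent.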
